A study of Drosophila melanogaster with 17 samples.

Results

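White prepupae at 0 h were compared with larvae of the third instar at -18 h relative to puparium formation, in messenger RNA of mushroom body neurons of Drosophila melanogaster. All 7 larval and all 7 prepupal arrays of the series entered, 14 of its 17 arrays, and every probe set other than the array's controls was tested. Both groups had the genotype yw;UAS-mCD8::GFP/+;;OK107-GAL4, in which OK107-GAL4, an insertion in the eyeless gene region, drives membrane-bound GFP in mushroom body neurons, so no animal without the driver or the GFP stands beside them. Larvae were staged with a blue dye in their food and taken as wandering animals with dark blue guts, although the same protocol text places them early in the third instar. The prepupae were newly formed and white. GFP-marked cell bodies were cut from frozen sections by laser capture, about 100 per capture, and 40 captures were pooled for each array. The replicates are labelled biological, but the number of animals behind a pool is not stated, so the p-values measure the spread between these pooled samples.

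The mushroom body is the centre for olfactory learning in the insect brain, and its intrinsic neurons, the Kenyon cells, receive and release acetylcholine. A rise of the steroid hormone ecdysone near the end of larval life starts metamorphosis. In the days that follow, the gamma class of these neurons loses its larval dendrites and axon branches by pruning and regrows adult ones, a process known to need ecdysone signalling, the ubiquitin-proteasome system, endocytosis and the engulfment of debris by glia. The prepupa falls just before that loss.

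Values below are log2 RMA values, a normalised probe set intensity, given as the median of the 7 arrays of a group with the lowest and the highest in parentheses. A change is the difference of the group means, and p-values are from limma's moderated test with Benjamini-Hochberg adjustment across the whole array. Array medians were 4.32 to 4.43, and the lower and upper quartiles of an array were near 3.4 and 5.6. A fold change that starts or ends near the lower quartile is compressed and reads as a minimum. Most genes named below were picked among calls without overlap between the groups, so its absence for them follows from that choice.

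The captures carried transcripts of mushroom body neurons in both groups. The eyeless gene ey read 9.15 (8.45 to 9.23) in larvae and 8.63 (8.42 to 9.11) in prepupae, and rut, an adenylyl cyclase needed for learning, read 10.38 (10.11 to 10.63) in larvae and 10.65 (10.35 to 11.08) in prepupae. The related factor toy and the cAMP phosphodiesterase dnc also lay above the upper quartile of every array, and none of the 4 passed the test between the groups. The probe sets of dac and Imp lay near the array medians, at 4.53 and 4.4 in larvae. Of 11 measured mushroom body markers 4 were lower and 0 higher at 0 h (median -0.24). The vesicular transporter gene prt read 8.73 (8.03 to 8.88) in larvae and 5.88 (5.47 to 6.53) in prepupae and fell 6.01-fold (adjusted p = 4.14e-10), with no overlap. The other lower markers were the RNA-binding protein gene mub (1.47-fold), the neuropeptide gene sNPF (1.23-fold) and chinmo, a temporal identity factor (1.41-fold, with changes of -0.03 and -0.06 on its other probe sets), each with a call that was lost in at least 1 alternative. Other tissues were also present. The mean of 5 salivary glue genes ran from 3.88 to 11.51 in larvae and from 3.66 to 3.89 in prepupae, and the muscle gene Mlc2 from 4.92 to 11.17 and from 4.74 to 5.15. Larval arrays 2 and 3 alone were low in both signals. The mean of 7 glia markers was 5.50 to 5.79 in larvae and 5.49 to 6.09 in prepupae, with 2 of the 7 higher and 2 lower. The mean of 5 fat body markers was 5.87 to 8.14 and 5.22 to 6.87, with 2 of the 5 lower and 0 higher (median -1.25). Of 4 general neuron markers 2 were lower and 0 higher. Among 8 markers of neuroblasts and dividing cells 3 were lower and 0 higher, and among 4 of hemocytes 2 were lower and 1 higher. The mean signal of the hybridisation spike-in controls, RNAs added to each sample, ran from 8.40 to 9.58, and its widest gap split the arrays into a higher set (larvae 1, 2, 3 and 7, prepupae 5, 6 and 7) and a lower set (larvae 4, 5 and 6, prepupae 1 to 4). The part of these tissues in the changes below was not tested, beyond the counts given with larval arrays 2 and 3 alone. In such pooled captures fewer cells of a type and less RNA per cell cannot be told apart.

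Between the stages 3388 of 13966 probe sets differed (24.3% of those tested), 1823 higher (13.1%) and 1565 lower (11.2%) in prepupae. Most of the differences were modest. Of the called probe sets 1877 (55.4%) changed by less than 1.5-fold, while 306 rose and 249 fell at least 2-fold and 42 rose and 48 fell at least 4-fold. The 7 prepupal arrays all lay above the 7 larval arrays for 846 probe sets (6.06%) and all below them for 733 (5.25%). Counted by gene, with 1 probe set each, 2824 of 10844 genes differed (26.0%), 1579 higher (14.6%) and 1245 lower (11.5%), and the median change over all genes was -0.02. Few transcripts went from a low to a high level. By that measure 2 probe sets lay below the array median in all larvae and above the upper quartile in all prepupae, those of Jhbp2 and of a transcript with no single symbol, and 0 went the opposite way.

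**Figure D1:**
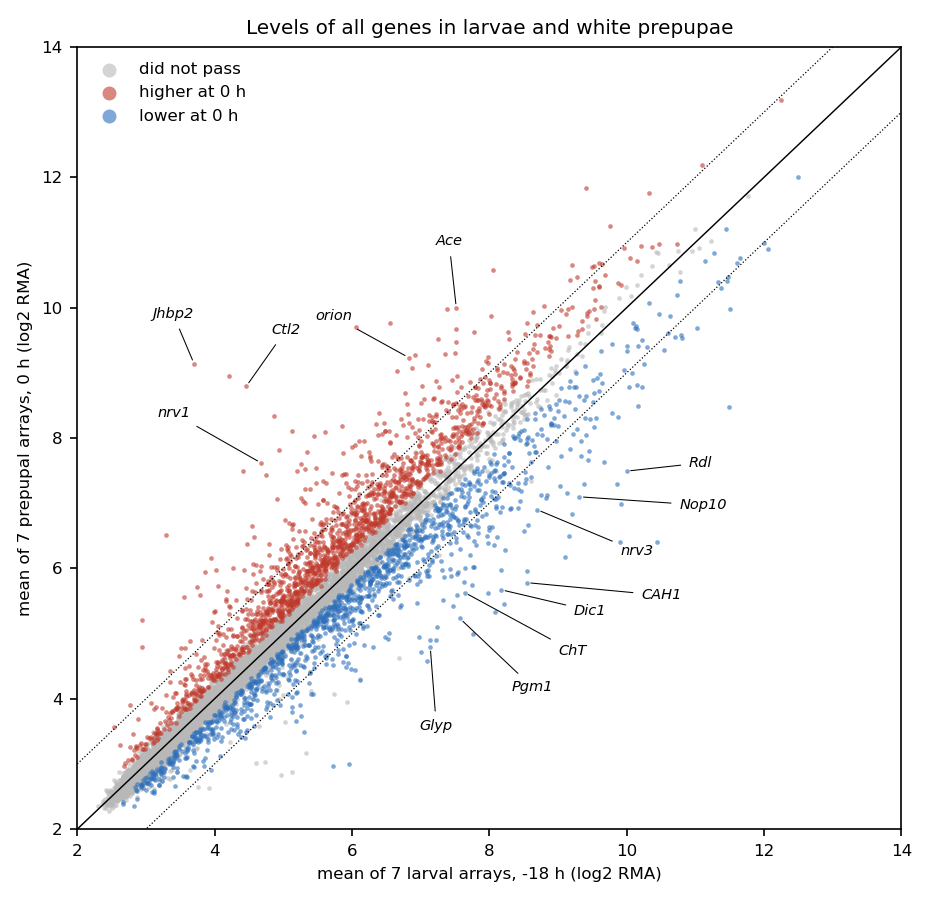
Mean log2 RMA value of each of 10844 genes in 7 larval arrays (horizontal axis) and 7 prepupal arrays (vertical axis), coloured by the limma test, with dotted lines at a 2-fold difference. Most coloured points lie within the dotted lines, and Jhbp2 and Ctl2 lie far above the diagonal.

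The span of a gene, from its start to its end with introns, went with the direction of change. Among genes with a mean level of at least 7 log2, 91 of the 131 under 1 kb fell (69.5%) and 10 rose (7.6%), with a median change of -0.54. Of the 295 such genes of 2 to 4 kb, 144 rose (48.8%) and 57 fell (19.3%), with a median of 0.31. Longer genes were much like the latter. Control probe sets outside the test moved as well. The 3-prime probe set of 18S ribosomal RNA read 9.21 (8.98 to 9.31) in larvae and 7.50 (7.02 to 8.05) in prepupae. The difference between 3-prime and middle probe sets, which grows when RNA is degraded or copies are truncated, was 3.03 (2.91 to 3.12) and 2.75 (2.53 to 3.0) for eIF4a but 1.79 (1.60 to 2.00) and 2.75 (2.23 to 3.19) for GAPDH. The difference between 3-prime and 5-prime probe sets of GAPDH went the opposite way, from 5.48 (5.26 to 5.88) to 4.86 (4.24 to 5.27). Gene span and RNA handling cannot be told apart from the stage, either for falls of short genes or for rises of longer ones. The part of span in the changes below was not tested. Spans are given below for several families.

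**Figure D2:**
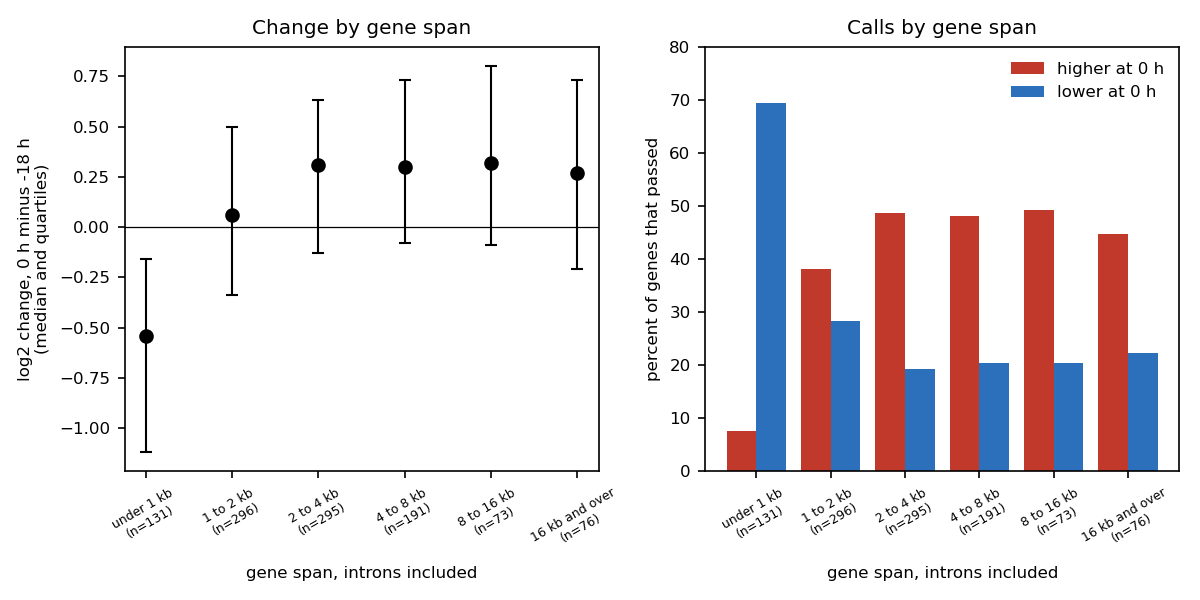
Genes with a mean of at least 7 log2, grouped by span: left, median log2 change (0 h minus -18 h) with quartiles as bars; right, percent of genes higher and lower at 0 h. Genes under 1 kb stand apart, with 69.5% lower and 7.6% higher.

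After Jhbp2 and the choline transporter-like gene Ctl2 (20.2-fold), genes with steep rises included several that act at the cell surface. Ace, which encodes the acetylcholinesterase that breaks down the transmitter in the cleft, read 7.44 (7.21 to 8.07) in larvae and 10.11 (9.29 to 10.39) in prepupae, and rose 5.57-fold (adjusted p = 2.05e-10). The lowest prepupal array was more than 1 log2 unit above the highest larval one. The gene orion, known as a chemokine-like signal by which these neurons call glia to prune them, read 6.84 (6.52 to 7.16) in larvae and 9.16 (9.06 to 9.48) in prepupae, a 5.31-fold rise (adjusted p = 2.14e-12). Its groups were as clearly apart. CngB, a subunit of cyclic nucleotide-gated cation channels, read 7.19 (7.10 to 7.50) in larvae and 9.67 (9.12 to 9.71) in prepupae and rose 4.82-fold (adjusted p = 7.8e-12), without overlap. Its partner subunit CngA rose on 1 probe set, with a log2 change of 3.22, while its other probe set changed by 0.13. Rises of similar size were found for vri, a repressor of the circadian clock (5.35-fold), Taz, the tafazzin that remodels cardiolipin (4.65-fold), casp, an inhibitor of the Imd immune pathway (4.48-fold), Nepl21, a neprilysin-like protease (4.60-fold), and Hsp26, a small heat shock protein (5.16-fold).

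The steepest falls were those of Pglym78 and Ald1, of glycolysis (16.3-fold and 11.4-fold), and of the metallothionein MtnA (8.07-fold), the last a gene under 1 kb. Rdl, a GABA-gated chloride channel subunit, read 10.02 (9.41 to 10.42) in larvae and 7.44 (7.21 to 7.79) in prepupae and fell 5.68-fold (adjusted p = 7.2e-11). All prepupal arrays lay far below all larval ones. Dic1, a mitochondrial dicarboxylate carrier, read 8.19 (7.94 to 8.43) in larvae and 5.62 (5.51 to 6.06) in prepupae, a 5.65-fold fall (adjusted p = 1.35e-12). Here too the groups were separate by a wide margin. The gene l(2)efl, a small heat shock protein, fell 4.42-fold, so that its direction was opposite to that of Hsp26. Nop10, a protein of the small nucleolar particles that modify ribosomal RNA, fell 4.63-fold and Acbp2, an acyl-CoA binding protein, 4.91-fold. Both genes span less than 2 kb. The gene futsch, the MAP1B-like microtubule protein, fell 5.13-fold on 1 probe set, but its other probe sets changed by 0.00 and 0.02.

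Genes for stored and circulating sugar fell in part. Of 16 measured genes for trehalose, glycogen and sugar entry, 8 fell and 0 rose, with a median change of -0.27 (all genes -0.02). Glycogen phosphorylase, Glyp, which releases glucose units from glycogen, read 7.04 (6.82 to 7.59) in larvae and 4.82 (4.48 to 5.17) in prepupae and fell 5.08-fold (adjusted p = 9.87e-11). Pgm1, the phosphoglucomutase of the next step, read 7.61 (7.34 to 7.85) in larvae and 5.13 (5.00 to 5.63) in prepupae and fell 5.06-fold (adjusted p = 4.97e-12). Neither gene had any overlap between the groups. The genes that build glycogen moved the same way, with falls of 2.73-fold for Glys, the glycogen synthase (adjusted p = 6.51e-09), and 1.91-fold for AGBE, the branching enzyme. Treh, the trehalase that splits the blood sugar trehalose, fell 2.01-fold, and Hex-A, a hexokinase, 2.04-fold. These genes are mostly long. The 12 with a span of 2 kb or more held all 8 falls.

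Genes of the citric acid cycle and of transport into mitochondria fell in part. Of 18 citric acid cycle and related genes 9 fell and 2 rose (median -0.37). Men, the cytosolic malic enzyme, fell 2.90-fold (adjusted p = 5.06e-08), and its other probe set changed by -0.91. SdhD, a small membrane subunit of succinate dehydrogenase, fell 1.60-fold. Both rises went against the group. Idh, the NADP-dependent isocitrate dehydrogenase, read 7.98 (7.76 to 8.17) in larvae and 8.70 (8.66 to 8.9) in prepupae and rose 1.70-fold (adjusted p = 1.69e-07), and ScsbetaG, a GTP-forming succinyl-CoA synthetase subunit, rose 1.91-fold (0.20 on its other probe set). Of 18 carrier and import genes 6 fell and 0 rose. They were Dic1, Mpcp2, the phosphate carrier (3.28-fold), sesB, the ADP/ATP exchanger (2.41-fold), porin, the outer membrane channel (2.31-fold, and -0.85 log2 on its other probe set), and the import proteins Tim8 (1.67-fold) and Tom7 (1.43-fold). In the machinery of mitochondrial fusion, fission and quality control 1 of 13 measured genes rose and 0 fell.

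Of 63 mitochondrial ribosomal protein genes 38 fell and 4 rose (median -0.39). The gene mRpS33 read 6.54 (6.30 to 6.67) in larvae and 4.86 (4.59 to 5.28) in prepupae and fell 3.03-fold (adjusted p = 1.28e-09), and mRpL55 fell 2.65-fold. Both were lower in every prepupal array than in any larval one. The family is short, with a median span of 921 bp, and 61 of its members lie under 2 kb. Of all 4559 genes under 2 kb, 656 were lower and 420 higher.

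Lipid and amino acid genes gave smaller groups of falls. Of 12 fatty acid oxidation genes 6 fell and 0 rose (3 fell with larval arrays 2 and 3 alone, and 3 within the higher spike-in set). Of the 5 under 2 kb 4 fell, against 2 of 7 longer ones. The gene scu, a mitochondrial hydroxyacyl-CoA dehydrogenase, fell 1.85-fold, Echs1, an enoyl-CoA hydratase, 1.53-fold, and whd, the carnitine palmitoyltransferase that admits fatty acids to mitochondria, 1.48-fold. Of 17 fatty acid and lipid synthesis genes 4 fell, 2 rose and 11 did not pass (median -0.08). ATPCL, the citrate lyase that makes cytosolic acetyl-CoA, fell 2.06-fold and FASN1, a fatty acid synthase, 2.03-fold. ACC, acetyl-CoA carboxylase, fell 2.64-fold on its brightest probe set and changed by -0.22 on the other. The rises were those of Gpat4, an acyltransferase of glycerolipid assembly (1.76-fold), and, on 1 of its 2 probe sets, mdy, which makes triglyceride (1.93-fold). Among 50 genes of amino acid, one-carbon and nucleotide metabolism 13 fell and 6 rose. Gdh, glutamate dehydrogenase, read 8.28 (8.15 to 8.71) in larvae and 6.97 (6.44 to 7.22) in prepupae and fell 2.64-fold (adjusted p = 1.54e-08), and Got2, an aspartate aminotransferase, fell 2.19-fold. The clearest rise in that group was ras, the IMP dehydrogenase of guanine nucleotide synthesis (2.23-fold).

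Many genes for cullin ubiquitin ligases and their regulators rose. Of 87 genes for cullins, F-box proteins, their regulators and deubiquitinases, 35 rose and 4 fell (median 0.14, and 23 rose within the higher spike-in set). Of the 63 with a span of 2 kb or more 23 rose, against 12 of 24 shorter ones. Of all 6241 genes of 2 kb or more, 1158 were higher and 585 lower. The COP9 signalosome, set apart after values were seen, removes the small modifier Nedd8 from cullins. It had 7 of 9 subunits higher and 0 lower (median 0.53). Its catalytic subunit CSN5 read 7.16 (6.77 to 7.32) in larvae and 8.33 (8.27 to 8.51) in prepupae and rose 2.36-fold (adjusted p = 1.87e-09). The gene alien, the second subunit of the complex, rose 2.22-fold, CSN6 1.77-fold and CSN7 1.65-fold (0.32 log2 on its other probe set). The members that did not pass were CSN8, with a change of 0.09, and CSN1a, with -0.13. Nedd8 itself went the other way, from 9.34 (9.03 to 9.50) in larvae to 7.95 (7.60 to 8.22) in prepupae, a 2.62-fold fall (adjusted p = 2.51e-09). Its arrays did not overlap, and the gene spans less than 1 kb. The ligases Ufd4 (1.98-fold) and ari-2 (2.41-fold) rose.

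Chaperones of newly made proteins also rose. All 8 measured subunits of the CCT chaperonin, the ring that folds actin and tubulin, were called, 7 higher and 1 lower (median 0.51). This complex was set apart after values were seen, and all 8 genes span 2 kb or more. CCT5 rose 1.75-fold, from 8.22 (7.89 to 8.40) to 9.0 (8.75 to 9.34) (adjusted p = 2.55e-06), without overlap. The 1 lower subunit, CCT6, changed by -0.42, and its call was lost with larval arrays 2 and 3 alone (log2 change -0.34). Cdc37, which hands kinases to Hsp90, rose 2.40-fold, and DnaJ-1, an Hsp40 co-chaperone, 1.63-fold. The prefoldin subunit Pfdn6, of a gene under 2 kb, fell 1.53-fold. In the endoplasmic reticulum 9 of 24 genes for folding and the unfolded protein response rose and 0 fell (median 0.27). The gene prtp, of the disulphide isomerase family and known as a ligand of the engulfment receptor Draper, read 7.51 (7.19 to 8.08) in larvae and 8.96 (8.70 to 9.34) in prepupae and rose 2.69-fold (adjusted p = 5.13e-08). TER94, the ATPase that extracts proteins for degradation, rose 1.95-fold, its cofactor Ufd1 1.77-fold, and Ero1L, an oxidase of that compartment, 1.48-fold.

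**Figure D3:**
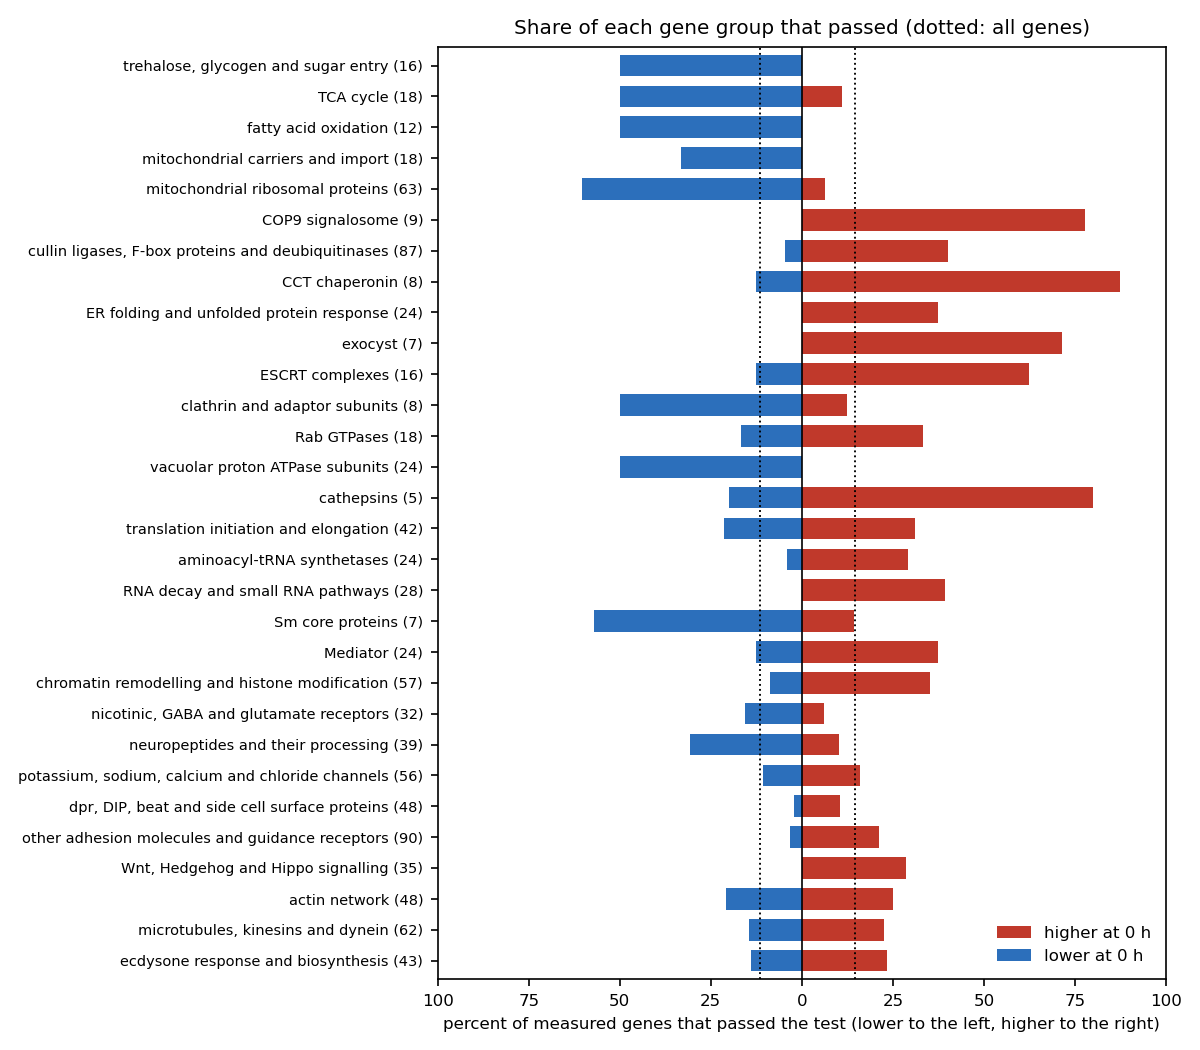
Percent of the measured genes of 30 groups that were lower (bars to the left) or higher (bars to the right) at 0 h, with the number measured in parentheses and dotted lines at the 11.5% and 14.6% of all genes. Sugar, mitochondrial and proton pump groups extend to the left, and the COP9, CCT, exocyst and ESCRT complexes to the right. The lists of single complexes were set apart after values were seen.

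Membrane traffic genes changed in both directions. Of 42 genes for endocytosis, retromer and ESCRT 17 rose and 9 fell (5 fell within the lower spike-in set), and of 26 for transport between endoplasmic reticulum and Golgi 8 rose and 3 fell. The latter rises numbered 3 and 2 within the higher and lower set, and 5 with quantile normalisation or without larval array 2 or 5 or prepupal array 1 or 6. The exocyst, which tethers secretory vesicles to the plasma membrane, had 5 of 7 measured subunits higher and 0 lower (median 0.64). All 7 genes span 2 kb or more. The exocyst, ESCRT and clathrin lists were set apart after values were seen. Sec10 read 6.26 (5.93 to 6.61) in larvae and 7.76 (7.32 to 7.93) in prepupae and rose 2.68-fold (adjusted p = 9.77e-09), and Exo70 rose 1.96-fold. The larval and prepupal arrays of both were apart. Sec5 and Sec15 did not pass, with changes of 0.28 and 0.07. Of 16 genes for the ESCRT complexes, which sort ubiquitinated receptors into multivesicular bodies, 10 rose and 2 fell (median 0.37). Stam read 5.42 (5.26 to 5.93) in larvae and 7.38 (6.41 to 7.87) in prepupae and rose 3.55-fold (adjusted p = 6.11e-08), while Hrs, its partner in the same complex, changed by 0.01 and did not pass. Prepupal array 7 was the lowest of its group for Stam, yet above all larval arrays. The gene shrb, the filament-forming subunit, rose 2.39-fold and Vps25, a gene under 1 kb of another ESCRT complex, fell 2.27-fold. The gene lqf, an epsin that recruits ubiquitinated cargo to clathrin pits, rose 2.57-fold. Clathrin heavy chain, Chc, rose 1.53-fold, whereas 4 of 8 clathrin and adaptor genes fell, among them AP-2sigma (2.41-fold, a gene under 1 kb) and AP-2mu (1.58-fold) of the plasma membrane adaptor.

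Among Rab GTPases, the switches that label membranes, 6 of 18 rose and 3 fell. Rab27, which is known for docking secretory granules, read 8.48 (7.48 to 8.67) in larvae and 5.33 (5.06 to 6.06) in prepupae and fell 6.76-fold (adjusted p = 2.48e-09). Larval arrays 5 and 6 lay apart below the other larval arrays, but every prepupal array was lower still. Rab26 fell 2.32-fold. Rab10, known for directing the secretion of basement membrane in follicle cells, rose 2.75-fold (0.17 on its other probe set), and Rab2, of the Golgi and late endosomes, 1.85-fold.

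Many proton pump subunits fell, while lysosomal proteins went both ways. Of 24 pump subunits 12 fell and 0 rose (median -0.33), with 6 falls among 12 genes under 2 kb and 6 among 12 longer ones. Vha14-1 read 9.04 (8.88 to 9.19) in larvae and 7.25 (6.90 to 7.59) in prepupae and fell 3.42-fold (adjusted p = 2.05e-10), and Vha36-1 fell 2.29-fold. Of 33 lysosomal hydrolases and membrane proteins 8 rose, 3 fell and 22 did not pass (median -0.03). The 5 cathepsins among them, proteases set apart after their values were seen, held 4 of the rises and 1 fall. CtsB read 9.14 (9.04 to 9.31) in larvae and 10.39 (10.05 to 10.77) in prepupae and rose 2.39-fold (adjusted p = 2.98e-08), with no overlap, and CtsL1 and CtsF rose 1.89-fold and 1.76-fold. Swim, a secreted cathepsin-like protein, fell 1.43-fold. Sap-r, the saposin precursor that helps to break down sphingolipids, rose 2.05-fold on 1 probe set and changed by 0.21 on the other.

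**Figure D4:**
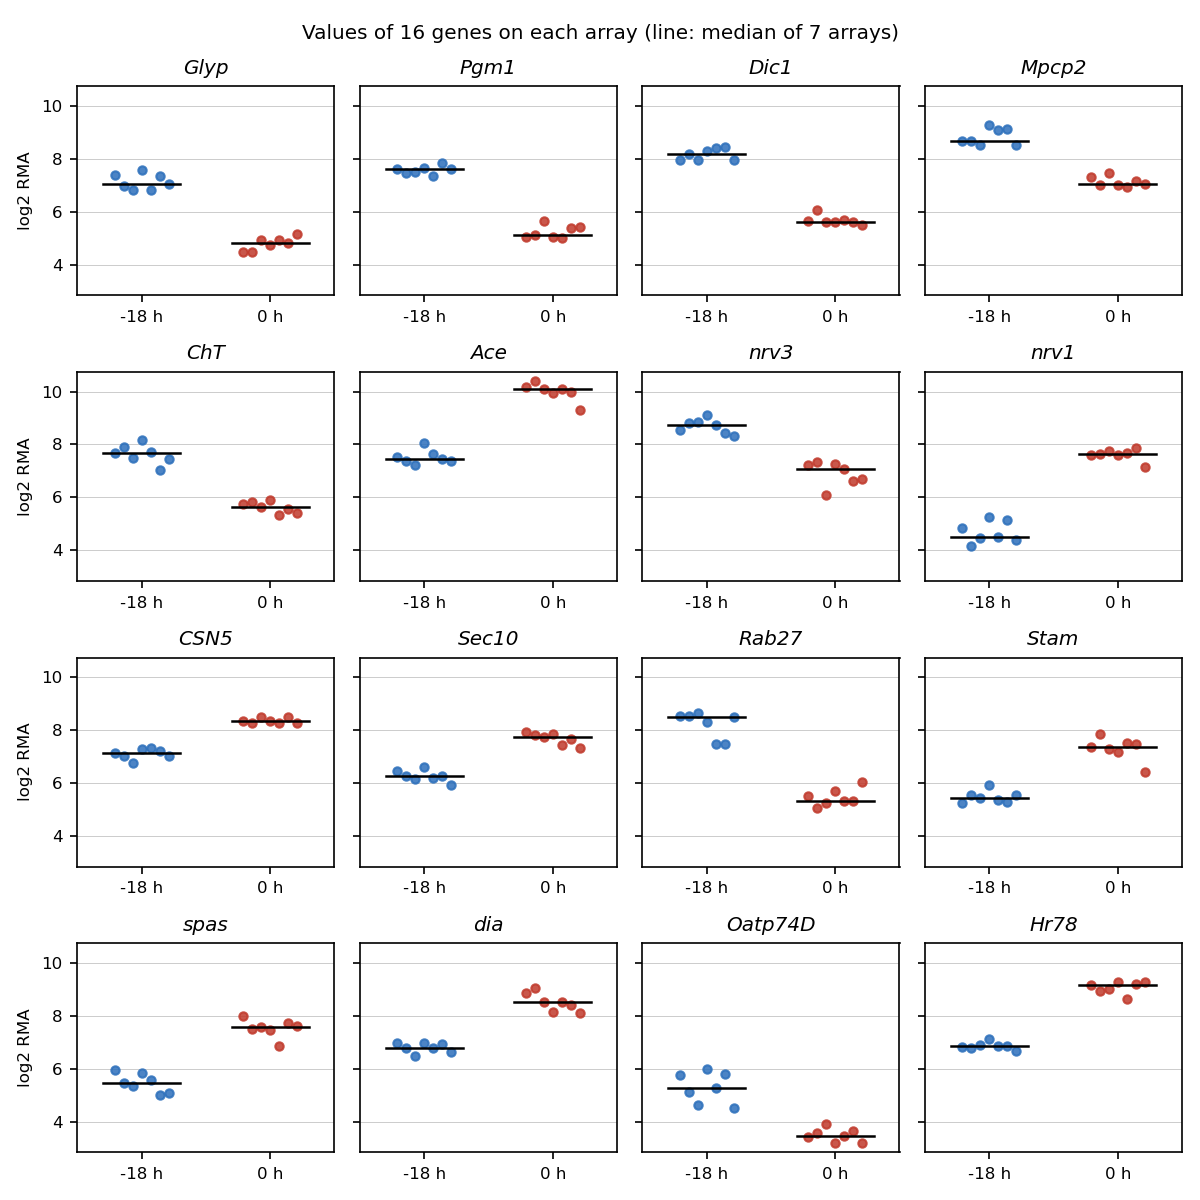
Log2 RMA values of 16 genes on each of 7 larval (-18 h) and 7 prepupal (0 h) arrays, in order of replicate number, with a line at each group's median. The genes were picked among calls without overlap, so the groups are apart in all 16 panels. Larval arrays 5 and 6 of Rab27 lie below the other larval arrays.

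Genes that act on messenger RNA rose in part. Of 28 genes for RNA decay and small RNA pathways 11 rose and 0 fell (median 0.17, and 7 rose within the higher spike-in set). Dcr-2, the Dicer of the RNA interference pathway, read 5.24 (5.16 to 5.65) in larvae and 7.06 (6.81 to 7.18) in prepupae and rose 3.22-fold (adjusted p = 3.7e-11). The helicase me31B, a core protein of cytoplasmic RNA granules, rose 1.89-fold, pcm, the exonuclease that degrades decapped RNA, 1.78-fold, and Smg6, the endonuclease of nonsense-mediated decay, 2.00-fold. The gene gw, the scaffold of microRNA silencing, rose 2.16-fold on 1 probe set and changed by -0.01 on the other. Translation factors split. Of 42 genes 13 rose and 9 fell, the latter count being 3 with larval arrays 2 and 3 alone and 4 within the higher spike-in set. Of the 21 under 2 kb 5 rose and 7 fell, while of the 21 longer ones 8 rose and 2 fell. The factor eIF5, which triggers GTP hydrolysis at the start codon, rose 2.34-fold, and both release factors rose, eRF1 2.05-fold and eRF3 2.20-fold. Gcn2, the kinase that senses uncharged tRNA, rose 2.04-fold. The start codon factor eIF1, of a gene under 2 kb, fell 2.13-fold (adjusted p = 1.18e-08). Of 24 aminoacyl-tRNA synthetases 7 rose and 1 fell, with HisRS 2.41-fold and GlyRS 1.63-fold higher.

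Subunits of the same nuclear machines moved apart. Of 40 splicing and mRNA export genes 12 rose and 8 fell (median 0.03, with 5 falls within the lower spike-in set and with larval arrays 2 and 3 alone). Of the 7 Sm proteins, singled out after their values were seen, which form the ring at the core of spliceosomal particles, 4 fell and 1 rose. SNRPG read 9.64 (9.43 to 9.81) in larvae and 7.73 (7.07 to 8.10) in prepupae and fell 4.11-fold (adjusted p = 5.33e-10), SmE fell 2.48-fold and SmF 1.69-fold. SmB and SmD1 of the same ring changed by 0.03 and 0.03, and SmD3 rose 1.68-fold. All 7 genes are under 2 kb. The RNA-binding protein glo, of the hnRNP family, rose 2.04-fold. Of 50 genes for RNA polymerase II, its general factors and Mediator, 10 fell and 8 rose among the 29 under 2 kb, against 0 and 7 among the 21 longer ones. Polr2L and Polr2J, small polymerase subunits, fell 2.70-fold and 1.87-fold, and TfIIA-S, a subunit of a general factor, fell 2.15-fold (adjusted p = 1.47e-09). These 3 genes span less than 1 kb. TfIIEalpha, a subunit of another general factor, rose 2.16-fold. In Mediator, also singled out after values were seen, 9 of 24 subunits rose and 3 fell. The kinase module gene kto was 2.01-fold higher and its module partner CycC 1.57-fold higher, while MED10 fell 2.08-fold.

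Chromatin regulators rose in part. Of 57 genes 20 rose and 5 fell (median 0.09). The gene chm, a MYST-type histone acetyltransferase, read 5.77 (5.62 to 6.26) in larvae and 8.16 (8.0 to 8.50) in prepupae and rose 5.05-fold (adjusted p = 7.75e-12). Every prepupal array was above every larval one. The histone demethylases Kdm5 (1.78-fold) and Utx (1.69-fold, 0.16 on its other probe set) rose, as did brm, the ATPase of the Brahma remodeller (1.73-fold, 0.15 on its other probe set). His2Av, the variant histone, fell 1.72-fold. Among nuclear transport genes 11 of 38 rose and 9 fell (2 within the lower spike-in set, where 6 rose). The importin alpha genes went opposite ways, with Kap-alpha3 up 1.76-fold (adjusted p = 3.45e-06) and Pen down 2.24-fold (adjusted p = 2.46e-05).

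Of 63 homeobox genes 3 rose and 1 fell, and of 43 basic helix-loop-helix and Notch target genes 4 rose and 2 fell. Of 108 zinc finger, SOX, forkhead and other factors 15 rose and 14 fell (median -0.02), the falls numbering 6 within the lower spike-in set, 8 without dim probe sets and 9 with larval arrays 2 and 3 alone. The gene brat, a translational repressor that restrains growth in the neural lineage, read 6.15 (5.46 to 6.38) in larvae and 7.88 (7.29 to 8.63) in prepupae and rose 3.63-fold (adjusted p = 1.32e-07). The gene nerfin-1, a zinc finger factor that keeps neurons differentiated, rose 3.50-fold on 1 probe set and changed by 0.16 on the other. Of 32 antioxidant and glutathione genes 10 fell, 4 rose and 18 did not pass, and 6 fell with larval arrays 2 and 3 alone. Of the 20 under 2 kb 7 fell and 1 rose, while of the 12 longer ones 3 fell and 3 rose. The gene maf-S, the small Maf partner of the antioxidant factor Cnc, fell 2.57-fold (adjusted p = 3.78e-09), and GstD1, a glutathione transferase of that response, 2.66-fold. The glutaredoxin Grx1 fell 3.58-fold, and Ccs, the copper chaperone of superoxide dismutase, rose 1.85-fold.

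Genes for acetylcholine signalling did not move as a block. ChT, the choline transporter of cholinergic terminals, read 7.68 (7.04 to 8.17) in larvae and 5.64 (5.34 to 5.91) in prepupae and fell 4.03-fold (adjusted p = 1.74e-09). ChAT, which makes the transmitter, read 7.68 (7.30 to 8.05) in larvae and 6.42 (6.02 to 6.86) in prepupae and fell 2.29-fold (adjusted p = 9.85e-07), and its other probe set changed by -1.34. These falls stand against the rise of Ace. Among 32 measured receptor subunits for acetylcholine, GABA and glutamate, 2 rose (6.2%) and 5 fell (15.6%), beside 14.6% and 11.5% of all genes. The falls numbered 3 within each spike-in set. The nicotinic subunit nAChRalpha2 read 7.43 (7.26 to 7.97) in larvae and 9.42 (9.39 to 9.64) in prepupae and rose 3.88-fold (adjusted p = 1.05e-11), while nAChRbeta1 fell 2.17-fold. Of 40 monoamine and peptide receptors 5 rose (12.5%) and 2 fell (5.0%), both below the shares of all genes. The serotonin receptor 5-HT2A rose 2.91-fold and the diuretic hormone receptor Dh44-R1 3.56-fold, while the dopamine receptor Dop1R1, known for its part in olfactory learning in these neurons, fell 1.88-fold (adjusted p = 6.77e-06). Ddc, which makes dopamine and serotonin, fell 2.94-fold.

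Of 39 neuropeptide and processing genes 12 fell and 4 rose (2 rose within the higher spike-in set and with larval arrays 2 and 3 alone, and 7 fell within the lower set). Of the 15 under 2 kb 6 fell, against 6 of 24 longer ones. The enzymes of peptide amidation were split. Phm, which carries out the first step, rose 1.96-fold, and of the lyases of the next step Pal1 rose 2.28-fold and Pal2 fell 1.64-fold. Their groups did not overlap.

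Single genes of ion balance and second messenger signalling changed both ways. Of 17 genes for ion pumps, cation-chloride cotransport and carbonic anhydrase 4 rose (23.5%) and 3 fell (17.6%). The rises numbered 2 within the higher spike-in set and with larval arrays 2 and 3 alone. The sodium pump beta subunits went opposite ways. The first, nrv1, read 4.50 (4.16 to 5.27) in larvae and 7.65 (7.16 to 7.86) in prepupae, and nrv3 read 8.76 (8.31 to 9.12) in larvae and 7.08 (6.08 to 7.33) in prepupae, a 3.46-fold fall (adjusted p = 1.47e-07), both without overlap. The other measured beta subunit, nrv2, changed by -0.33 and did not pass (adjusted p = 0.241). The gene kcc, the potassium-chloride cotransporter that keeps neuronal chloride low, fell 4.72-fold on 1 probe set (adjusted p = 1.23e-09) and changed by 0.12 on the other. CAH1, a cytosolic carbonic anhydrase, read 8.50 (8.15 to 9.04) in larvae and 5.71 (5.53 to 6.25) in prepupae, with no overlap. Of 56 other channel genes 9 rose (16.1%) and 6 fell (10.7%), near the 14.6% and 11.5% of all genes. ClC-b, a chloride transporter of internal membranes, rose 2.76-fold and Irk2, an inward rectifier, 2.07-fold on 1 of its 2 probe sets. Of 42 cAMP and cGMP signalling genes 4 rose and 5 fell (falls numbered 3 within the higher spike-in set and 2 within the lower), and of 40 calcium and kinase genes 7 rose and 10 fell (4 rose within the higher set). Ac76E read 6.09 (5.38 to 6.59) in larvae and 3.04 (2.75 to 3.27) in prepupae, and Ac13E rose 1.83-fold. Of the guanylyl cyclases Gyc89Da, an oxygen-sensing subunit, rose 2.73-fold and Gycalpha99B, of the nitric oxide receptor, fell 1.92-fold. The calcium sensor Frq1, a frequenin, rose 2.60-fold, and the related sensor Nca, a neurocalcin, fell 2.37-fold.

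More adhesion and guidance genes rose than fell. Of 90 such genes 19 rose (21.1%) and 3 fell (3.3%), although the median change was -0.01. The shares over all genes were 14.6% and 11.5%. All 90 span 2 kb or more, and of all 6241 genes of that span 1158 were higher and 585 lower. Ptp69D, a receptor phosphatase for axon guidance, read 6.03 (5.92 to 6.49) in larvae and 6.98 (6.53 to 7.35) in prepupae and rose 1.77-fold (adjusted p = 3.3e-05). Its highest larval array lay just under its lowest prepupal one. The gene tok, a tolloid-like protease that activates TGF-beta ligands, rose 2.49-fold (adjusted p = 1.41e-07), and klg, an immunoglobulin family adhesion molecule, 3.61-fold on 1 probe set, with 0.10 on the other. Of 48 genes of the large dpr, DIP, beat and side families, which pair synaptic partners, 5 were higher (10.4%) and 1 lower (2.1%). Their median span was 34210 bp, and among all genes of 16 kb and over 13.2% were higher and 8.2% lower. The 1 that fell, dpr5, fell 4.13-fold (adjusted p = 1.51e-09), and dpr20 rose 2.16-fold. The glial adhesion molecule wrapper fell 1.71-fold, while the glial factor repo rose 2.06-fold with overlapping arrays.

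Of 35 genes of the Wnt, Hedgehog and Hippo pathways 10 rose and 0 fell. Ror, a Wnt receptor tyrosine kinase of neurons, read 7.52 (7.02 to 7.86) in larvae and 8.59 (8.10 to 8.86) in prepupae and rose 2.08-fold (adjusted p = 1.05e-05). The gene hpo, the Hippo kinase, rose 2.25-fold from near the lower quartile, and jub, which restrains the pathway, 1.74-fold. Of 38 TGF-beta, Notch and JAK/STAT genes 8 rose and 4 fell. Within the higher and lower spike-in sets 5 and 4 rose, and 2 and 1 fell. Psn, the catalytic subunit of gamma-secretase that cleaves Notch, rose 3.43-fold, and Med, the shared Smad of TGF-beta signalling, 2.05-fold. Of 43 MAPK, EGFR and JNK genes 9 rose and 3 fell. The rises numbered 3 and 5 within the higher and lower set, and 5 with larval arrays 2 and 3 alone. The gene msn, a Ste20 kinase upstream of JNK, rose 3.77-fold. Psn, Med and msn were without overlap.

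Transport across the plasma membrane changed both ways. Of 64 ABC, sugar, amino acid and monocarboxylate transporter genes 16 rose and 13 fell (7 fell within the higher spike-in set). Indy, a citrate transporter, read 4.16 (3.60 to 4.25) in larvae and 5.77 (5.21 to 6.29) in prepupae and rose 3.21-fold (adjusted p = 3.22e-08). Its groups were separate, and Orct, an organic cation transporter, rose 3.08-fold. The major facilitator genes MFS3 and MFS9 fell 3.79-fold and 4.06-fold. Of 53 cytochrome P450 genes 11 fell and 1 rose (falls numbered 5 within the higher spike-in set and 7 within the lower), with Cyp4g15, a member of the Cyp4 family, down 2.64-fold. Of 47 odorant-binding and other extracellular binding proteins 7 fell (14.9%, all genes 11.5%) and 2 rose (4.3%, all genes 14.6%). Obp99a, of the odorant-binding family, was among the brightest genes, with 12.08 (11.87 to 12.21) in larvae and 10.84 (10.71 to 11.26) in prepupae, and fell 2.23-fold (adjusted p = 6.79e-09). The gene crq, a scavenger receptor of macrophages, rose 2.37-fold from near the lower quartile. The ferritin subunit Fer1HCH rose 1.48-fold, and Tsf1, a transferrin, fell 1.60-fold.

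Cytoskeletal genes changed both ways. Of 62 microtubule and motor genes 14 rose and 9 fell, and of 48 actin genes 12 rose and 10 fell (5 fell with larval arrays 2 and 3 alone). Of the 6 actin genes under 2 kb 3 fell, against 7 of 42 longer ones. The microtubule-severing ATPase spas, or spastin, read 5.47 (5.00 to 5.97) in larvae and 7.58 (6.88 to 8.0) in prepupae and rose 4.18-fold (adjusted p = 9.98e-09). The formin dia, which nucleates straight actin filaments, read 6.80 (6.5 to 6.98) in larvae and 8.52 (8.12 to 9.07) in prepupae and rose 3.30-fold (adjusted p = 7.43e-09). Both were apart in all arrays. The septin Septin1 rose 3.43-fold, alphaTub84D, an alpha tubulin, 1.92-fold (0.82 on its other probe set), and Kap3, the cargo adaptor of kinesin-2, 2.12-fold. Of the actin binders chic, or profilin, rose 1.56-fold and sn, or fascin, 2.01-fold, while Arpc3A of the Arp2/3 complex fell 1.60-fold.

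**Figure D5:**
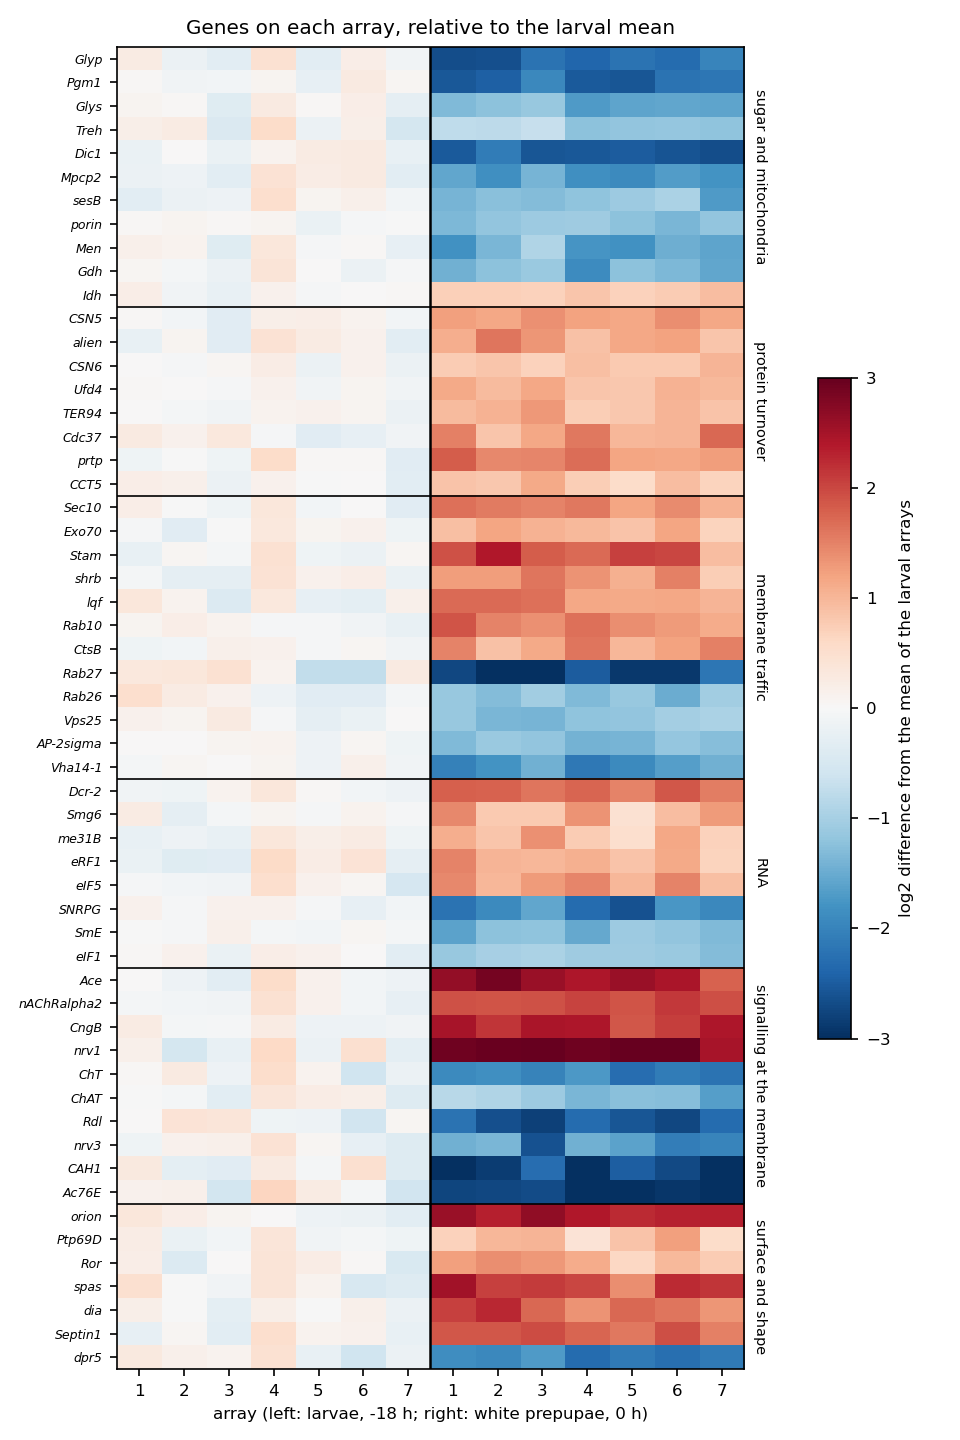
Log2 difference from the larval mean for 56 genes (vertical axis, grouped by role) on each larval and prepupal array (horizontal axis), with red above and blue below. Genes of traffic, transmission and ion balance hold both colours in prepupae, and those shown for protein turnover are red.

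Hormone genes moved in several ways. Of 43 ecdysone response and synthesis genes 10 rose and 6 fell. Oatp74D, the importer through which ecdysone enters cells, read 5.27 (4.53 to 5.99) in larvae and 3.45 (3.20 to 3.92) in prepupae and fell 3.52-fold (adjusted p = 9.85e-07), to the level of the lower quartile. Hr78, an orphan nuclear receptor, read 6.87 (6.67 to 7.14) in larvae and 9.16 (8.64 to 9.29) in prepupae and rose 4.63-fold (adjusted p = 4.97e-12). The groups did not overlap for either gene. Sox14, an ecdysone target needed for pruning, rose 3.75-fold, and Dronc, an initiator caspase, 3.73-fold. Few juvenile hormone genes passed the test. Of 20 measured 2 rose and 1 fell, the rise besides that of Jhbp2 being Kr-h1, a zinc finger factor induced by that hormone, which rose 2.10-fold with overlapping arrays (adjusted p = 0.00012). Its receptors Met and gce changed by -0.06 and 0.10 and did not pass.

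Larval captures varied more than prepupal ones. The SD was larger in larvae for 59.4% of probe sets, with a median of 0.177 against 0.156. An SD of at least 1 log2 unit was found for 61 probe sets in larvae, 19 of them called, and for 4 in prepupae. Of the 40 genes most variable in larvae 31 were highest in array 6, among them the 5 glue genes and Mlc2. Lcp9, a larval cuticle protein, was at 10.82 in larval array 6 and had a larval median of 3.17. In prepupae the most variable genes included the neuropeptide gene Ms, which read 7.37 (5.59 to 8.82) in larvae and 6.06 (4.48 to 7.81) in prepupae and did not pass (adjusted p = 0.151), and the fat body gene Fbp2, which read 8.91 (6.98 to 9.95) in larvae and 7.88 (5.64 to 8.22) in prepupae (adjusted p = 0.0803).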

How the data were processed

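The authors deposited one log2 RMA value for each probe set of each array, made in Affymetrix Expression Console according to the submitters' processing notes. Software versions and joint normalisation of all arrays are not stated there. About 22 ng of total RNA was amplified in 2 linear rounds, per the labels' protocols. Values were used as deposited. Of 14010 probe sets 44 controls were left out. Symbols come from the array's annotation, updated through the RefSeq Release 6 gene table, which also gave gene spans, and 12443 probe sets had 1 symbol. The 1209 genes with several probe sets are represented by the one with the highest mean, and 327 probe sets with several symbols and 1196 without any enter only the probe set counts.

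The 7 larval and the 7 prepupal arrays were compared with limma 3.58.1 (lmFit and eBayes, R 4.3.3), two-sided, with Benjamini-Hochberg adjustment over 13966 probe sets and a threshold of 0.05. The fit was tested on simulated data. Precision is limited by the number of arrays. Genes were named from the 40 largest rises and 40 largest falls without overlap, and from up to 6 members per list with the smallest p-values among calls without overlap, with tissue markers. Kr-h1, Ms, Lcp9 and the members set beside others because they did not pass were chosen after their values were seen. The comparison, the lists and their members were chosen with earlier results of these data known, the lists of single complexes were added and members of other families removed after values were seen, and no set test was run. The labels state no block. Alternatives covered normalisation, a robust fit, array weights, replicate number or spike-in set as a block, dim probe sets and arrays left out. The 3 arrays at 5 h entered only 1 of these. Some results are not reported here.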

Additional observations from a re-analysis of the deposited data

Results flagged for a closer look

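Of 398 groups of 7 arrays examined for the genes named above, 22 held 1 array set far from the other 6 by Dixon's criterion, 14 in larvae and 8 in prepupae. Chance gives about 5% of groups. Their causes were not tested.

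Larval array 4 was the one apart most often, always on the high side. It read 9.23 for AP-2mu (others 8.39 to 8.71), 9.53 for CtsF (9.08 to 9.27) and 8.71 for Gdh (8.15 to 8.37). It also read 5.93 for Stam (5.26 to 5.54), 8.21 for klg (7.54 to 7.78), 8.08 for prtp (7.19 to 7.57) and 8.81 for wrapper (8.11 to 8.34). Among these Stam, klg, prtp and CtsF were higher at 0 h, and the other 3 were lower.

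In the other larval arrays, array 6 read 9.57 for GstD1, where the others read 7.99 to 8.48, and array 1 read 7.0 for Orct, where the others read 6.19 to 6.53. Array 5 was low for Echs1, at 7.66 (7.95 to 8.13), and for porin, at 10.59 (10.76 to 10.88). Array 2 was low for Psn, at 5.7 (6.15 to 6.41), array 3 for Swim, at 3.78 (3.97 to 4.07), and array 7 for kcc, at 6.41 (7.09 to 7.5).

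Prepupal array 7 was apart for 6 genes. It was low for Ace, at 9.29 (9.95 to 10.39), CngA, at 5.51 (6.31 to 6.88), nrv1, at 7.16 (7.59 to 7.86), chinmo, at 3.09 (3.75 to 3.97), and nrv2, at 3.81 (4.86 to 5.42), and high for dac, at 4.8 (4.42 to 4.55). Array 4 was low for CtsL1, at 9.65 (9.91 to 10.11), and array 2 high for Dic1, at 6.06 (5.51 to 5.67). The calls for all of these genes named as changed were kept without the array in question.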

How the results depend on the processing

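In none of 25 alternatives was a probe set called in the opposite direction. Against 3388 probe sets called in all 14 arrays, the arrays of higher spike-in signal alone gave 2244, with 1181 of them higher at 0 h, and the lower set gave 962 lower ones. In the higher set 2109 calls were shared with the full comparison in the same direction, and in the lower set 2140 of 2262. Both sets hold fewer arrays. The spike-in set as a block gave 3431, larval arrays 2 and 3 alone against all prepupae 2653, with 2298 shared, and the fit without dim probe sets 2782. Quantile normalisation, median centring, a robust fit, array weights and a fit with all 17 arrays gave 3363 to 3821. With 1 array left out the calls ranged from 3093 to 3714, those higher from 1674 to 1944 and those lower from 1407 to 1770. At least 2-fold changes ranged from 286 to 342 higher and 237 to 261 lower. The lowest total came without prepupal array 1 and the highest without larval array 4.

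The replicate numbers were not treated as pairs. Same-numbered arrays had correlations of -0.281 to 0.367 between their deviations from the group means, 1 of 7 was above 0.1, and 1 larval array correlated best with its own number. With the replicate block 3370 probe sets were called, 1824 higher and 1546 lower, and 3217 were shared.

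Most genes named in the text were picked for large or clear changes without overlap, so their stability does not describe all calls. Of the 182 called ones 178 kept their call in every alternative that tested them, and none changed sign. In 1 of the 25 alternatives 10 of the 182 were left out as dim. Calls were lost for CCT6 (adjusted p = 0.0584 with larval arrays 2 and 3 alone), mub (0.155 within the lower spike-in set, and also with those arrays), sNPF (0.126 with those arrays and 0.221 within the higher set) and chinmo (0.249 within the lower set). Of the genes that did not pass, ey passed in 4 alternatives, rut in 5, Fbp2 and Sec5 in 3 each and Lcp9 in 1. Counts of small groups moved more. Within the spike-in sets microtubule falls went from 9 to 4 (lower set), actin falls from 10 to 4 and 6 (higher and lower set), chromatin falls from 5 to 3 in each, monoamine and peptide receptor rises from 5 to 2 and 3, rises in amino acid, one-carbon and nucleotide genes from 6 to 1 and 3, and rises of the dpr, DIP, beat and side families from 5 to 3 (higher set). Falls among channel genes went from 6 to 2 in the lower set and to 10 with array weights, and P450 falls from 11 to 4 without dim probe sets. The cause of these moves was not tested. Probe sets near the lower quartile have little signal over background, which compresses the folds printed there.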
